A study of Triticum aestivum with 4 samples.

Results

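The enzymes described here run the methionine and S-adenosylmethionine cycle in bread wheat roots: methionine synthase, S-adenosylmethionine synthase and adenosylhomocysteinase, with the protein named methionine adenosyltransferase 2 subunit beta beside them. Members were chosen by the text of the protein hit, as transcripts with values per library and a best hit in a grass. The rule used no measured change, but it was written with earlier results of these data known. There were 21 such transcripts among 91482, in 15 assembled genes. The best hits of 15 lay in Aegilops tauschii (goatgrass, a wild ancestor of bread wheat and a pooid grass like it). The other hits lay in rice (1 in Oryza sativa, 1 in Oryza brachyantha) and in panicoid grasses (2 in Panicum hallii, 1 in Setaria italica, 1 in maize), which are more distant relatives of wheat.

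The tested group was grown from wheat seeds (genotype UAS-375) that had spent 12 h at 10 g before sowing, and the control group from untreated seeds of the same genotype. Roots of both groups were collected at 45 days from plants grown in pipes in a greenhouse, and stranded poly(A) libraries were sequenced, 2 per group. The labels do not tell if both libraries of one group derive from different plants, so p-values measure only the spread between these libraries, which may be technical. The deposited table gave 1 value per group, from which the count of each library was recovered. The 2 libraries of a group are called a and b, since nothing ties them to a replicate number.

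In the cycle, methionine synthase moves a methyl group from a folate onto homocysteine and so forms methionine. S-adenosylmethionine synthase, also called methionine adenosyltransferase, joins methionine to the adenosyl part of ATP and gives S-adenosylmethionine, the methyl donor for lignin precursors, membrane lipids, DNA and histones and the starting point of ethylene, polyamines and, in grasses, the iron chelators nicotianamine and phytosiderophores. Each methylation leaves S-adenosylhomocysteine, which inhibits methyltransferases, and adenosylhomocysteinase splits it into homocysteine and adenosine, closing the cycle.

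Recovered counts summed to 46604327 and 47850533 in hypergravity and to 49424285 and 53346750 in control. Values below are normalized counts, each count divided by its library's size factor, and changes are log2 fold changes of hypergravity over control on the log2(value + 1) scale, ± SE, tested by limma with Benjamini-Hochberg adjustment over all 91482 transcripts and called at an adjusted p under 0.05. Of the root markers, 34 nitrate uptake, nicotianamine synthase and phytosiderophore transporter transcripts were present, summing to 24222 and 18975 in hypergravity and to 22682 and 30706 in control. Of these, 4 were called higher and 7 lower, and 27 of the 34 changes were below 0, where 46672 of all 91482 were. All 7 called lower were nicotianamine synthases, and all 4 called higher were high-affinity nitrate transporters. No tested transcript carried the text for Casparian strip membrane protein or root cap. Leaf markers comprised 6 transcripts, of which 3 were called higher and 0 lower, and they summed to 1804 and 1551 in hypergravity and to 1209 and 1176 in control, with none for the small subunit of Rubisco. The 4 flower or seed markers, of which 2 were called higher and 0 lower, summed to 535 and 466 in hypergravity and to 264 and 304 in control. They came from 2 assembled genes, and the glutenin and gliadin transcripts were isoforms of TRINITY_DN24474_c0_g1. The other transcript, named major pollen allergen Car b 1-like, had 245 and 168 in hypergravity and 146 and 175 in control and was not called. Of all 91482 transcripts, 13.5% were called higher and 11.9% lower, and the marker counts stand against these shares. The part of root, leaf and flower or seed tissue in the results below was not tested.

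Methionine synthase and adenosylhomocysteinase transcripts were higher in roots from hypergravity seeds in several forms, and S-adenosylmethionine synthase in 1 form. Of the 21 transcripts, 8 were called higher and 0 lower by limma, where 13.5% of all 91482 transcripts were called higher and 11.9% lower. At an unadjusted p under 0.05, 9 were higher and 1 lower, where 17303 of all 91482 transcripts were higher and 16887 lower. The unadjusted counts given below for enzymes and lists stand against these numbers too. Limma with voom weights also called 8 of the 21 higher and 0 lower. Of the 8, 3 were at least 2-fold higher, where 4.94% of all transcripts were called higher by that much. The median change was 0.16, against -0.01 over all transcripts. Both hypergravity libraries lay above both control libraries in 11 of the 21 and below them in 1, where 31.9% and 32% of all transcripts did so. In whole roots, more RNA per cell and more cells of a type cannot be told apart.

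**Figure D1:**
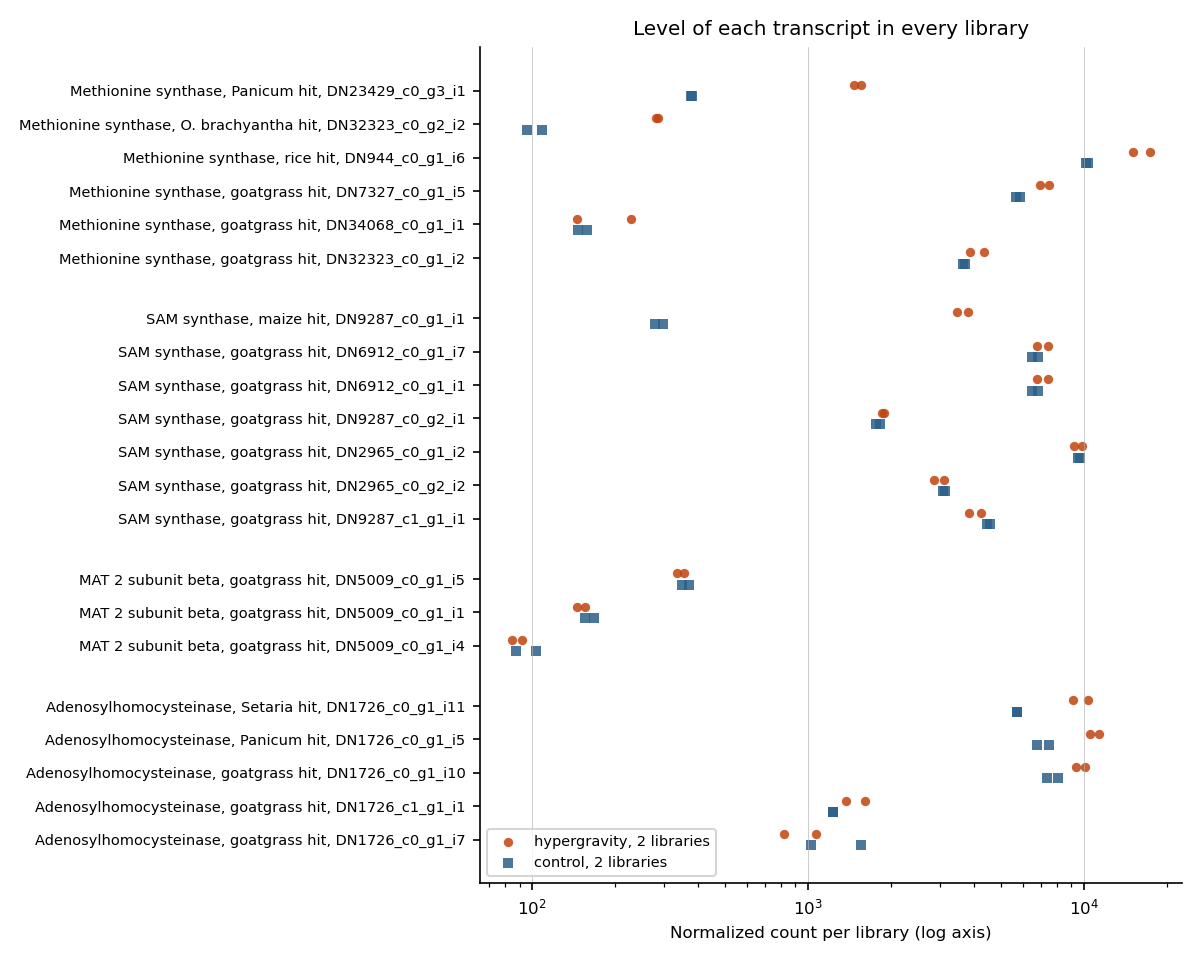
Normalized count of each transcript on a log axis, 1 row per transcript, with circles for the 2 hypergravity libraries above squares for the 2 control libraries. The S-adenosylmethionine synthase with a maize hit stands furthest apart, at 3468 and 3789 in hypergravity and 278 and 298 in control, while the goatgrass forms of that enzyme lie close together in both groups.

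The calls divided by the species of the best hit. Among goatgrass hits 2 of 15 were called higher, or 13.3%, where 13.2% of all transcripts with pooid hits were, so this share is that of the background, and 0 were called lower, where 13% were. Among rice hits 2 of 2 were called higher and among panicoid hits 4 of 4, where 14.2% of all transcripts with rice hits and 19.3% of those with panicoid hits were. The 4 panicoid hits lay in 3 assembled genes. Of these genes, TRINITY_DN1726_c0_g1 of adenosylhomocysteinase also held isoforms with goatgrass hits, so it stood on both sides of the division. Called lower were 8.99% of all transcripts with rice hits and 10.8% of those with panicoid hits. The changes ranged from -0.44 to 0.34 for goatgrass hits, with a median of 0.06, and from 0.63 to 3.65 for rice and panicoid hits, with a median of 1.11. Transcripts with panicoid hits took 2.79% and 2.71% of all counts in hypergravity and 2.66% and 2.69% in control, and those with rice hits 1.46% and 1.46% in hypergravity and 1.45% and 1.41% in control. The species of a best hit is not a measure of the species of the RNA, and no transcript sequence was used here to tell wheat transcripts from those of another grass, so this was not tested.

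**Figure D2:**
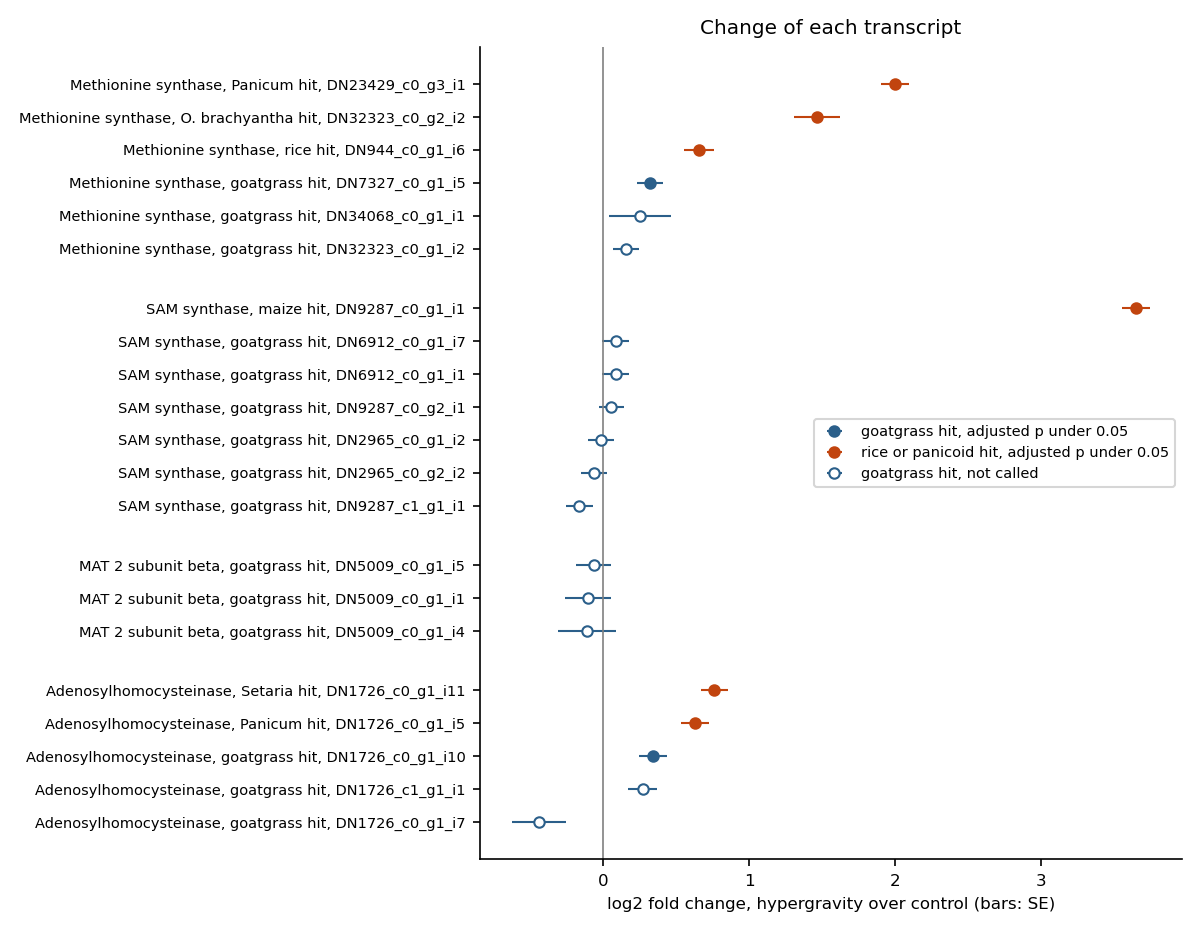
Log2 fold change of hypergravity over control for each transcript, with bars of 1 SE, blue for goatgrass hits and orange for rice or panicoid hits, and filled symbols for an adjusted p under 0.05. All 6 orange symbols are filled and lie at 0.63 or above, and 2 of 15 blue symbols are filled.

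Methionine synthase, which makes methionine, was higher in 4 of its 6 transcripts and lower in 0 by limma, by voom weights and at an unadjusted p under 0.05, with all 6 changes above 0. The hits name the cobalamin-independent enzyme of plants, 5-methyltetrahydropteroyltriglutamate--homocysteine methyltransferase 1. The transcript with the highest count, although not the highest per kilobase (TRINITY_DN944_c0_g1_i6, Oryza sativa hit, 3196 bases) had 15027 and 17377 normalized counts in hypergravity, against 10186 and 10336 in control. The groups did not overlap, and the change was 0.66 ± 0.10 (limma, adjusted p = 0.00123). Its assembled gene also held 3 transcripts with hits to 2 uncharacterized goatgrass proteins. Those with Pfam matches carried TFIIS and BAH domains, and none of the 3 was called. When all transcripts of that assembled gene were summed the change was 0.40.

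A transcript with a Panicum hallii hit and the catalytic domain (TRINITY_DN23429_c0_g3_i1, 906 bases) stood at 1555 and 1472 in hypergravity and at 380 and 377 in control. The groups lay far apart, and the difference was 3.99-fold (95% interval on the log2 scale 1.78 to 2.21; limma, adjusted p = 1.64e-06). A short transcript with an Oryza brachyantha hit and the N-terminal domain (TRINITY_DN32323_c0_g2_i2, 563 bases) had 287 and 281 in hypergravity, against 95.6 and 109 in control, a change of 1.47 ± 0.16 (limma, adjusted p = 0.000117). Both had lower levels per kilobase than the main goatgrass forms with the same domains. Per kilobase, the Panicum form averaged 1044 over the 4 libraries and the Oryza brachyantha form 343, against 6975 for the goatgrass transcript with the catalytic domain and 4109 for the goatgrass transcript with the N-terminal domain.

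Those 2 goatgrass transcripts had the same protein as best hit and carried different domains of it. The catalytic part (TRINITY_DN7327_c0_g1_i5) had 6932 and 7471 in hypergravity and 5667 and 5878 in control, a change of 0.32 ± 0.09 (limma, adjusted p = 0.0258). This call was lost without hypergravity b, without control a and without control b, with changes of 0.26 to 0.37 over the 4 omissions. The N-terminal part (TRINITY_DN32323_c0_g1_i2) had 3873 and 4328 in hypergravity and 3709 and 3636 in control. The groups did not overlap, but the change of 0.16 ± 0.09 was not called (95% interval -0.05 to 0.36; limma, adjusted p = 0.242). A short catalytic fragment with another goatgrass hit (TRINITY_DN34068_c0_g1_i1, 554 bases) had 227 and 145 in hypergravity and 147 and 158 in control, with overlapping groups and a change of 0.25 ± 0.21 that was not called.

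S-adenosylmethionine synthase, which makes the methyl donor, had 7 transcripts, of which the 1 with a maize hit was called higher and the 6 with goatgrass hits were not called by limma, with or without voom weights, nor past an unadjusted p of 0.05. The maize-hit form (TRINITY_DN9287_c0_g1_i1, 988 bases, C-terminal domain) was the transcript that changed most of the 21. It stood at 3468 and 3789 in hypergravity and at 278 and 298 in control, so that each hypergravity library was far above each control library. The change was 3.65 ± 0.10, or 12.6-fold (95% interval on the log2 scale 3.43 to 3.87; limma, adjusted p = 1.62e-07), and it was 3.59 to 3.71 when any 1 library was left out.

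The 6 goatgrass transcripts of S-adenosylmethionine synthases 1 to 4 changed by -0.16 to 0.09. The most abundant per kilobase, a part of S-adenosylmethionine synthase 1 with the C-terminal domain (TRINITY_DN2965_c0_g1_i2), had 9222 and 9822 in hypergravity and 9703 and 9512 in control. Its groups overlapped and its change was -0.01 ± 0.09, with a 95% interval of -0.21 to 0.19 that holds both small rises and small falls. The N-terminal part of the same protein hit (TRINITY_DN9287_c1_g1_i1, 543 bases) had 3821 and 4252 in hypergravity and 4439 and 4583 in control. Both hypergravity libraries were lower, but the change of -0.16 ± 0.09 was not called (95% interval -0.37 to 0.04; limma, adjusted p = 0.225).

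S-adenosylmethionine synthase 2 was held by 2 long transcripts of 1 assembled gene (TRINITY_DN6912_c0_g1_i1 and i7) whose counts differed by at most 0.167% in any library. The first had 6744 and 7393 in hypergravity and 6489 and 6813 in control, a change of 0.09 ± 0.09 that was not called. Counts so alike may hold the same reads, so the pair is not a pair of independent measurements. S-adenosylmethionine synthase 3 (TRINITY_DN2965_c0_g2_i2) had 3105 and 2859 in hypergravity and 3082 and 3143 in control, with overlapping groups and a change of -0.06 ± 0.09. S-adenosylmethionine synthase 4 (TRINITY_DN9287_c0_g2_i1, N-terminal domain) had 1853 and 1886 in hypergravity and 1824 and 1770 in control. These groups did not overlap, yet the change of 0.06 ± 0.09 was not called (95% interval -0.13 to 0.25).

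Levels of the enzyme per kilobase set the maize-hit form apart in control roots. It had 3510 and 3835 normalized counts per kilobase in hypergravity and 281 and 301 in control, while the 6 goatgrass forms ranged over the 4 libraries from 2263 for synthase 4 to 9292 for the C-terminal part of synthase 1. In control the maize-hit form was thus below every goatgrass form, and in hypergravity it lay within their range.

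The transcripts named methionine adenosyltransferase 2 subunit beta, after a regulatory subunit of the mammalian enzyme, had the 3 lowest levels of the 21 per kilobase, with means of 97.4 to 299 over the 4 libraries. The 3 transcripts were isoforms of 1 assembled gene (TRINITY_DN5009_c0_g1) with 1 goatgrass protein as hit. The most abundant (i5), the only 1 of the 3 with a Pfam match, to an RmlD substrate binding domain, had 334 and 355 in hypergravity and 372 and 349 in control. Their changes were -0.07 ± 0.12, -0.10 ± 0.16 and -0.11 ± 0.20 on overlapping groups, and none was called by limma, voom weights included, or at an unadjusted p under 0.05.

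Adenosylhomocysteinase, which removes the product that inhibits methyltransferases, was called higher in 3 of 5 transcripts and lower in 0, both by limma and with voom weights, and at an unadjusted p under 0.05 4 were higher and 1 lower. Of these 5 transcripts, 4 were isoforms of 1 assembled gene (TRINITY_DN1726_c0_g1) although their best hits lay in 3 species, so within this gene the hit species differed between isoforms. The Setaria italica form (i11, NAD binding domain) had 9143 and 10310 in hypergravity and 5741 and 5703 in control, a change of 0.76 ± 0.09 (limma, adjusted p = 0.000301). The Panicum hallii form (i5) had 10565 and 11386 in hypergravity and 6764 and 7455 in control, a change of 0.63 ± 0.10 (limma, adjusted p = 0.00109). In both, the lower hypergravity library was well above the higher control library.

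A goatgrass isoform of the same gene with the NAD binding domain (i10) had 9386 and 10126 in hypergravity and 7335 and 8077 in control, a change of 0.34 ± 0.10 (limma, adjusted p = 0.0259). Its call was lost without hypergravity b, without control a and without control b, with changes of 0.27 to 0.41 when any 1 library was left out. The other goatgrass isoform (i7) ran the other way, with 1068 and 816 in hypergravity and 1027 and 1562 in control. Its groups overlapped and its change of -0.44 ± 0.18 was not called (limma, adjusted p = 0.111). Its change was -0.64 without hypergravity a and -0.25 without hypergravity b. It was -0.74 without control a and -0.14 without control b. Each of these fits left 1 library in a group, and their p-values are not comparable with that of the full fit. The sum over the assembled gene, which also held an isoform with no protein hit, was 30290 and 32774 in hypergravity and 21059 and 22944 in control, and its change of 0.52 ± 0.08 was called (limma, adjusted p = 0.0017). Within that sum i7 took 3.53% and 2.49% in hypergravity and 4.88% and 6.81% in control.

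A short transcript of a separate assembled gene of the same cluster (TRINITY_DN1726_c1_g1_i1, 609 bases, goatgrass hit) had 1613 and 1377 in hypergravity and 1236 and 1234 in control. The groups did not overlap, but the change of 0.27 ± 0.10 was not called (limma, adjusted p = 0.0777). It was 0.16 without hypergravity a and 0.39 without hypergravity b.

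Summed over transcripts, the cycle's enzymes differed in how far the groups stood apart. Methionine synthase summed to 27901 and 31075 in hypergravity and to 20184 and 20494 in control, a ratio of means of 1.45. Adenosylhomocysteinase summed to 31776 and 34014 in hypergravity and to 22103 and 24032 in control, a ratio of 1.43. S-adenosylmethionine synthase summed to 34964 and 37405 in hypergravity and to 32315 and 32931 in control, a ratio of 1.11. In all of these sums both hypergravity libraries exceeded both control libraries. An exact two-sided permutation test of 2 libraries against 2 cannot give a p below 0.333, which each of these sums reached, so they are descriptions.

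Nearly all of the difference in summed S-adenosylmethionine synthase lay in the maize-hit transcript. The goatgrass forms summed to 31495 and 33616 in hypergravity and to 32037 and 32633 in control, with overlapping groups and a ratio of 1.01, or 0.992 when 1 of the 2 near-identical isoforms was left out. The maize-hit form made up 9.92% and 10.1% of the sum in hypergravity and 0.860% and 0.904% in control. For methionine synthase the goatgrass forms had a ratio of 1.20 and the rice and panicoid forms 1.68, and for adenosylhomocysteinase these ratios were 1.19 and 1.61. All 21 transcripts together held 0.196% and 0.209% of all counts in hypergravity and 0.154% and 0.156% in control.

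**Figure D3:**
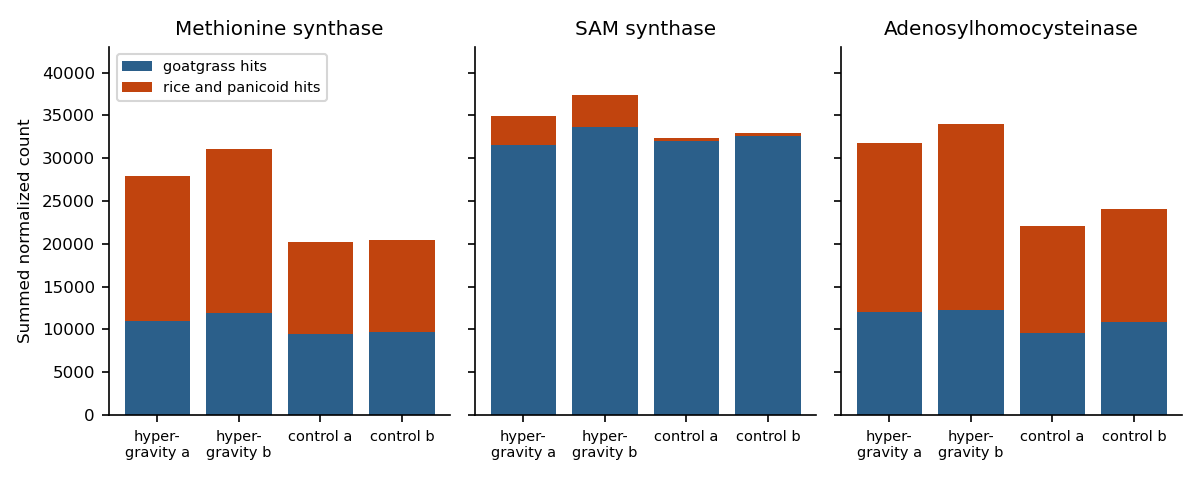
Summed normalized counts of 3 enzymes in each library, hypergravity left of control, with goatgrass hits in blue and rice and panicoid hits stacked above them in orange. The blue part of S-adenosylmethionine synthase is about level over the 4 libraries (ratio 1.01), while both parts of methionine synthase and adenosylhomocysteinase are taller in hypergravity.

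The same enzymes were also found outside the chosen members. By Pfam domain, 2 further transcripts had grass hits whose text differs from the search terms, both in maize and picked out here after their values were seen. One, named S-adenosylmethionine synthetase 1 (TRINITY_DN2965_c1_g1_i1), had 852 and 1000 in hypergravity and 273 and 269 in control, a change of 1.76 ± 0.12 (limma, adjusted p = 7.79e-06). The other, an uncharacterized protein with the methionine synthase catalytic domain (TRINITY_DN23429_c0_g2_i1), had 544 and 442 in hypergravity and 390 and 451 in control, and was not called. With search terms met but hits outside the grasses there were 22 transcripts, of which 7 (31.8%) were called higher and 1 lower. Of all 7885 transcripts with hits in other species, 23.4% were called higher, and 519 were called lower. The 7 called higher included, chosen after their values were seen, an adenosylhomocysteinase with a Rhodamnia argentea hit (TRINITY_DN5674_c0_g1_i5), at 879 and 1083 in hypergravity and 306 and 225 in control. They also included an S-adenosylmethionine synthase with a Nymphaea colorata hit (TRINITY_DN2965_c1_g1_i7), at 621 and 689 in hypergravity and 177 and 206 in control.

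Neighbouring steps with grass hits moved in both directions. Over the 12 lists that held transcripts, 24 of 123 transcripts were called higher and 22 lower. Of all 91482 transcripts, 13.5% were called higher and 11.9% lower, and the counts of each list below stand against these shares. Cystathionine gamma-synthase, which joins activated homoserine to cysteine on the way to methionine, was called higher in 9 of 10 transcripts with a median change of 3.34, all of them goatgrass hits. The 10 transcripts came from only 4 assembled genes. Isoforms of TRINITY_DN1078_c0_g1 and TRINITY_DN18538_c0_g1, which may share reads, changed by 3.30 to 3.66 and set the median. The transcripts of the other genes changed by 0.33 (called) and 0.15 (not called). TRINITY_DN1078_c0_g1_i11 had 1784 and 1843 in hypergravity and 146 and 139 in control. It was the list with the largest median change of the 12. Cystathionine beta-lyase, which releases homocysteine, had 1 transcript at -0.19 that was not called by limma, with or without voom weights. The aspartokinase and homoserine enzymes had 2 of 18 higher and 2 lower, and the 2 lower ones, named homoserine kinase-like, shared an assembled gene with transcripts of a PIN-LIKES 7-like membrane transport protein.

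Among suppliers of methyl groups, serine hydroxymethyltransferases and methylenetetrahydrofolate reductases, which load and reduce the folate used by methionine synthase, had 4 of 14 called higher and 1 lower, with a median change of -0.04. The mitochondrial serine hydroxymethyltransferase with a Setaria viridis hit (TRINITY_DN7658_c0_g2_i1) had 1560 and 1729 in hypergravity and 900 and 857 in control, a change of 0.90 ± 0.10. Serine hydroxymethyltransferase 4-like (TRINITY_DN2985_c3_g1_i1, goatgrass) changed by -1.21 ± 0.32. Homocysteine and methionine S-methyltransferases, which form methionine or its storage form S-methylmethionine, were called in 0 of 25 transcripts by limma. At an unadjusted p under 0.05, 2 were higher and 1 lower, and voom weights called 1 higher and 0 lower. Adenosine kinase, which clears the adenosine that adenosylhomocysteinase releases, had 0 of 2 called by limma, with or without voom weights. At an unadjusted p under 0.05, 1 was higher.

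Lists of enzymes that use S-adenosylmethionine or salvage its sulfur differed in direction. Of 11 methionine salvage transcripts 5 were called lower and 0 higher, with a median change of -0.39. At an unadjusted p under 0.05, 7 were lower and 0 higher, and voom weights called 5 lower and 0 higher. Methylthioribose kinase 2 (TRINITY_DN6143_c0_g2_i1, Brachypodium hit), an enzyme of that salvage, had 394 and 425 in hypergravity and 625 and 653 in control. Nicotianamine synthase, which condenses S-adenosylmethionine into an iron chelator, was called lower in 7 of 8 transcripts and higher in 0, with a median of -1.01, all 8 being also in the root marker list above. Voom weights called 7 lower and 0 higher.

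Polyamine enzymes had 5 of 19 called lower and 3 higher by limma, or 8 lower and 3 higher with voom weights. The 19 transcripts came from 10 assembled genes. Those called lower by limma were TRINITY_DN14627_c0_g1 isoforms i1, i5, i7 and i8, which may share reads, and TRINITY_DN2034_c0_g1_i5. Among those called higher, TRINITY_DN5908_c0_g1_i7 and i8 were isoforms of 1 assembled gene. S-adenosylmethionine decarboxylase with a Setaria italica hit (TRINITY_DN14627_c0_g1_i5) had 7293 and 7565 in hypergravity and 9961 and 9537 in control. This panicoid-hit transcript was thus lower, as was isoform i7 of the same gene, with a goatgrass hit, at -0.59 ± 0.10. The ethylene precursor enzyme 1-aminocyclopropane-1-carboxylate synthase had 3 of 6 higher and 0 lower by limma, with or without voom weights. All 3 were isoforms of 1 assembled gene, TRINITY_DN11524_c0_g1. Its isoforms i5 and i12 changed by -0.29 and -0.32 and were not called. The isoform with a Panicum hallii hit (TRINITY_DN11524_c0_g1_i9) had 447 and 408 in hypergravity and 60.1 and 71.4 in control. Methyltransferases of lignin precursors and phospholipids had 3 of 8 higher and 1 lower, among them caffeoyl-CoA O-methyltransferase 1 (TRINITY_DN630_c1_g1_i6, Oryza brachyantha hit) at 2355 and 2034 in hypergravity and 683 and 917 in control. The single S-adenosylmethionine carrier transcript (TRINITY_DN12246_c0_g2_i1), which moves the donor into organelles, changed by -0.26 ± 0.09 (limma, adjusted p = 0.0491), a call that voom weights did not give.

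**Figure D4:**
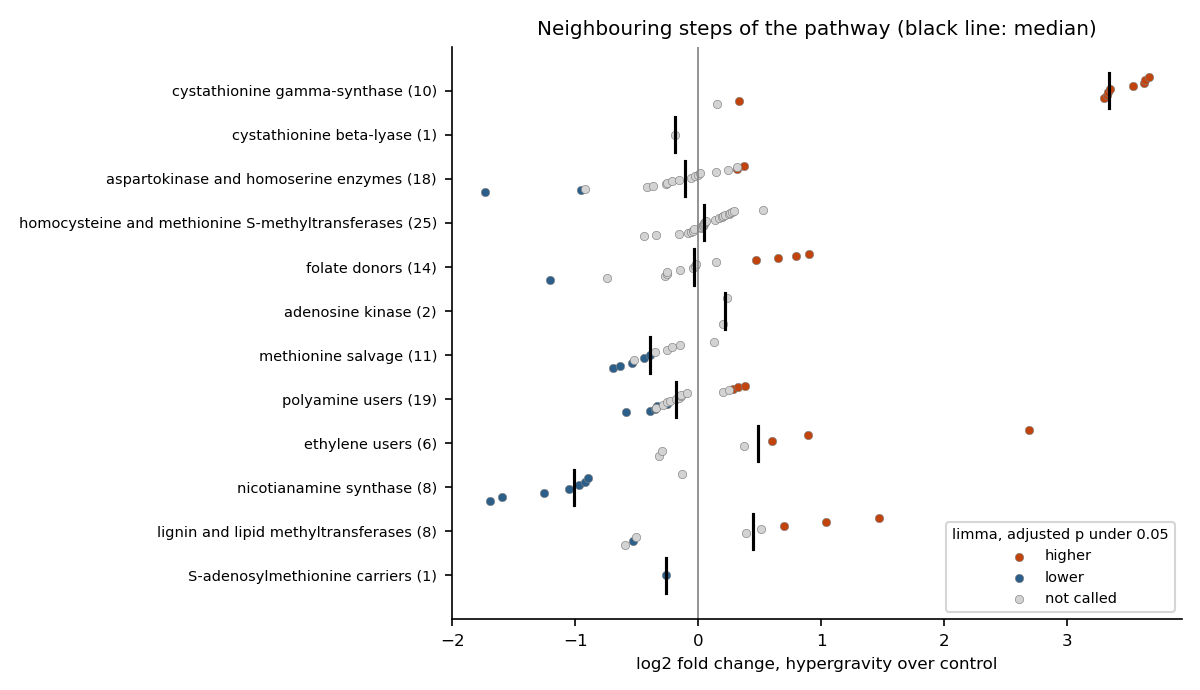
Log2 fold change of hypergravity over control for each transcript of the 12 neighbouring lists, with the number of transcripts in brackets, colour for the limma call and a black line for the median of each list. Cystathionine gamma-synthase stands far to the right with a median of 3.34, and nicotianamine synthase lies to the left with a median of -1.01.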

How the data were processed

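The authors deposited 1 table of assembled transcripts with protein hits. Per the file headers its 2 value columns, 1 for each group, hold FPKM. The submitters' processing notes name RSEM. For assembler, aligner and filters the sources used here give no name. In 91482 rows with more than 2 decimals the deposited signal was the sum, over 2 libraries, of whole counts divided by size factors. The size factors (0.959 and 0.971 in hypergravity, 1.01 and 1.06 in control) were read from the steps between low values and equalled median-of-ratios factors of the recovered counts. All rows (100%) split into exactly 1 pair of counts within 1e-09. In the other 55815 rows the deposited values have at most 2 decimals, were taken as FPKM, and were not tested.

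Values were tested as log2(value + 1) with limma 3.58.1 in R 4.3.3 (eBayes with a mean-variance trend), on all rows whose mean was at least 1, which removed 0 rows. Residual degrees of freedom were 2 and prior degrees of freedom 7.91, and the procedure was tested on simulated data. Intervals are limma's 95% intervals, and they cover the spread between these libraries only. Reads shared between isoforms and the wheat subgenomes can shift between near copies. Named neighbours are up to 2 called transcripts per list with the largest absolute change. Members were to be named by call and level within each enzyme and hit side, and the remaining members are named too so that all are accounted for. Alternatives were other scalings (TMM, quantile), pseudocounts, filters and thresholds, sums per assembled gene, voom weights and leaving out each library. The lists, like the members, were chosen with earlier results of these data known. The lists are text patterns, and the one for methionine gamma-lyase matched no tested transcript. No hit accession matched the wheat gene table.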

Additional observations from a re-analysis of the deposited data

Results flagged for a closer look

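Of the 5 transcripts of these enzymes with grass hits and only 1 deposited FPKM value per group, which entered no test, 4 had a higher value in hypergravity than in control. An S-adenosylmethionine synthase 2 with an Oryza sativa hit (TRINITY_DN6912_c1_g1_i1) had 22.36 FPKM in hypergravity and 0.34 in control as the authors' values. A methionine synthase with a Setaria viridis hit (TRINITY_DN32323_c0_g2_i1) had 20.6 FPKM in hypergravity and 0.28 in control. A methionine synthase with a Brachypodium distachyon hit (TRINITY_DN34063_c0_g1_i1) had 4.41 FPKM in hypergravity and was listed at 0 in control. A methionine adenosyltransferase 2 subunit beta with a Setaria italica hit (TRINITY_DN46426_c0_g1_i1) had 2.05 FPKM in hypergravity and was listed at 0 in control. The fifth, an S-adenosylmethionine synthase 3 with a goatgrass hit (TRINITY_DN57380_c0_g1_i1), was listed at 0 in hypergravity and had 2.49 FPKM in control. These values have no replicate, their depth is unknown, and 68.3% of all 55815 such rows were higher in hypergravity. Of the 55815 rows, 16989 were listed at 0 in control and 2045 at 0 in hypergravity.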

How the results depend on the processing

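The count of 8 transcripts called higher was 2 with pooid hits only and 3 at a fold of at least 2. It was 6 at an adjusted p under 0.01. When all transcripts of an assembled gene were summed, 6 of the 15 genes with a member were called higher. The count fell without hypergravity b, without control a and without control b, and was unchanged without hypergravity a. The count called lower was 0, or 0 to 1 when 1 library was left out. Over 252 recomputed member values, 237 kept their direction and side of the threshold. Values changed sign for 4 transcripts: TRINITY_DN1726_c0_g1_i7 to 0.52 when summed with its assembled gene, and TRINITY_DN2965_c0_g1_i2 to 0.11 under quantile normalization. The first ranged from -0.74 to -0.14 and the second from -0.0589 to 0.0320 when 1 library was left out. TRINITY_DN34068_c0_g1_i1 ranged from -0.0683 to 0.58 and TRINITY_DN5009_c0_g1_i4 from -0.23 to 0.0043 when 1 library was left out. With 1 library left in a group, it is assumed to vary like the other group. Adjusted p-values and calls from such fits are not comparable with those of the full fit. The cause of these changes was not tested. Voom weights were added after the data were seen. The planned tests with edgeR and DESeq2 were not run, although whole counts were recovered for all tested transcripts, so how far the calls depend on a count model was not tested. No paired analysis was possible because the recovered libraries carry no replicate number.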

Other observations

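Outside the grasses, 27 further transcripts of these enzymes had only 1 deposited FPKM value per group, of which 18 were higher in hypergravity and 9 lower, near the 68.3% higher among all 55815 such rows. The largest of these values was for a methionine synthase with a Cucurbita pepo hit (TRINITY_DN23429_c0_g1_i1), at 156.27 FPKM in hypergravity and 1.76 in control as the authors' values. It shares its assembly cluster with the Panicum hallii form of methionine synthase that was 3.99-fold higher in hypergravity and with the maize-hit catalytic fragment that was not called. In control the highest such value was 4.44 FPKM.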
